A study of Mus musculus with 3 samples.

Results

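82 genes of oxidative phosphorylation were measured in mouse visceral white adipose tissue (VWAT) and are described here by the respiratory complex to which their products belong. They were chosen by name alone, as the genes whose symbol in the platform annotation begins with Nduf, Sdh, Uqcr, Atp5, Cox4, Cox5, Cox6, Cox7 or Cox8. Cox7a1 and Cox8b were left out by name, because they served as brown adipocyte markers. Of 89 symbols that matched, 82 were detected, with the detection p of some probe under 0.01 on 1 array or more, out of 10603 genes measured in the same way. 41 of them belonged to complex I, 7 to complex II, 6 to complex III, 12 to complex IV and 16 to complex V.

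3 groups of C57BL/6JRj mice were compared, with 28 weeks given as their age in the labels, which does not match the ages and durations in the methods of the study. HFD-Rapa mice were kept on a high-fat diet and received rapamycin, an inhibitor of the kinase mTOR, once a week for 22 weeks, HFD-Ve mice received the excipient solution on the same diet, and the third group, lean, was fed regular chow. The label of the lean group names a low-fat diet with vehicle, and it is called chow here. RNA of several mice was pooled per group and hybridized to 1 Illumina bead array per pool, so that no difference can be set against a spread between replicates and none was tested, and the study used both sexes with the make-up of each pool not given in the sources used here. VWAT is a mix of adipocytes, vessel, stromal and immune cells, and a lower signal in such RNA cannot tell fewer cells of a type and less RNA per cell apart. Signals and differences are on the log2 scale, and 3 differences are named for short: the rapamycin difference is HFD-Rapa minus HFD-Ve, the diet difference HFD-Ve minus chow, and the combined difference HFD-Rapa minus chow.

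Oxidative phosphorylation takes place in the inner mitochondrial membrane. Complexes I and II pass electrons from NADH and succinate to ubiquinone, complex III hands them to cytochrome c, and complex IV reduces oxygen with them. Complexes I, III and IV pump protons, and complex V, the ATP synthase, uses the resulting gradient to make ATP. In white fat the system supports lipid synthesis and adipocyte differentiation, whereas in brown fat it is uncoupled to release heat. Some core subunits, among them the catalytic subunits of complex IV, are encoded by mitochondrial DNA, and none of those genes has a symbol that the rule covers.

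The arrays had similar detection, with 37.4% to 39.7% of 45281 probes detected and median scanner signals of 92.7 to 107. Of the adipocyte markers fixed for a check of the label, 11 of 12 were measured, and Adipoq, which encodes adiponectin, had log2 signals of 13.84 in HFD-Rapa, 14.34 in HFD-Ve and 14.55 in chow. Of the 82 genes, 80 were detected on every array. Cox4i2 was not detected on the HFD-Rapa array and Cox6a2 was not detected on the chow array. Every one of the 82 had a detection p of 0 on at least 1 array. The nearest gene outside was Ndufb11, an accessory subunit of complex I, whose lowest detection p was 0.0150. The other 6 below the threshold were Sdha (0.0609), the flavoprotein of complex II, Ndufs1 (0.247), a core subunit of complex I, Uqcrfs1 (0.327), the Rieske protein of complex III, the testis isoforms Cox8c (0.654) and Cox7b2 (0.850), and the assembly factor Ndufaf6 (0.909). Their probes were not above background, which gives no level for these genes.

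In HFD-Rapa against HFD-Ve VWAT the oxidative phosphorylation genes were slightly lower as a group, and few of them by much. Their median log2 difference was -0.14 (quartiles -0.32 and 0.00), or 1.10-fold lower, against 0.02 over all 10603 genes. 61 of 82 (74.4%) were below 0, against 47.5% of all genes. At 1.5-fold, the size used here for a call, 2 of 82 were lower, where 7.55% of all genes were. The lower genes were Ndufs3, a core subunit of complex I, and Cox4i2, an isoform of complex IV subunit 4. 2 of 82 were higher at that size, where 8.54% of all genes were, and these were Cox6b2 and Cox6a2, the testis and the striated muscle isoforms of complex IV subunits. Neither was higher by 1.5-fold with no background correction, with an offset of 50, by a shift to a common median or on the authors' processed values.

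In HFD-Ve against chow VWAT the median difference was -0.33 (quartiles -0.49 and -0.06), or 1.26-fold lower, against -0.05 over all genes. 66 of 82 (80.5%) were below 0, against 54.7% of all genes. 9 of 82 were lower by at least 1.5-fold, where 11.7% of all genes were: Ndufa10, Ndufa12, Ndufs7, Ndufa5, Ndufab1, Ndufv1 and Ndufv3 of complex I, and Uqcrc2 and Uqcrq of complex III. 5 of 82 were higher, where 15.1% of all genes were, and these were Cox6a2, Ndufb4, Atp5md, Atp5e and Sdhaf3. This comparison depended most on the scaling of the arrays. A shift of each array to a common median moved the median of all genes to 0.15, and 2 of the 82 genes were then lower and 10 higher by 1.5-fold, beside 6.57% lower and 21.7% higher of all genes. Relative to the median of all genes the members lay at -0.28 by quantile normalization and at -0.25 by the median shift. A shift to a common 75th percentile gave 16 lower and 4 higher, beside 13.2% lower and 13.7% higher of all genes.

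HFD-Rapa against chow VWAT showed the widest gap. The median difference was -0.46 (quartiles -0.73 and -0.05), or 1.38-fold lower, against -0.04 over all genes. 31 of 82 (37.8%) were lower by at least 1.5-fold, where 19.5% of all genes were. 6 of 82 were higher, where 20.5% of all genes were: Cox6a2, Atp5md, Ndufb4, Atp5e, Cox7a2 and Cox7b. At 2-fold, 4 of 82 (4.88%) were lower, where 8.25% of all genes were, and these were Ndufa12, Ndufa10, Ndufab1 and Uqcrc2. 4 of 82 were higher at 2-fold, where 11.7% of all genes were: Cox6a2, Atp5md, Ndufb4 and Atp5e. The share of members thus lay above that of all genes for lower signals at 1.5-fold and below it at 2-fold. The HFD-Rapa array had the lowest of the 3 signals for 54 of the 82 genes (65.9%), as it did for 38.0% of all genes, and the chow array had the highest for 61 (74.4%), as it did for 45.2% of all genes. The 3 comparisons share arrays, so they are given side by side and not as support for one another.

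**Figure D1:**
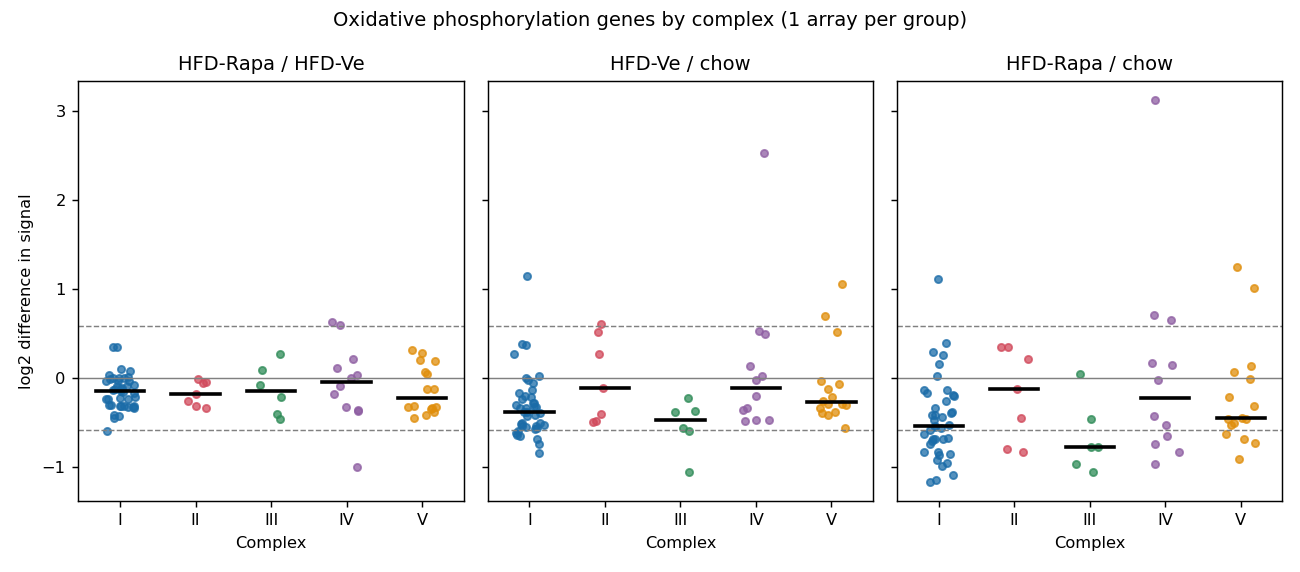
Log2 difference in signal of each of the 82 genes (points) by complex, for HFD-Rapa over HFD-Ve, HFD-Ve over chow and HFD-Rapa over chow, with 1 array per group. Black bars are medians, dashed lines mark 1.5-fold, and the medians of HFD-Rapa over chow lie between -0.12 for complex II, whose 3 subunits without its assembly factors have -0.80, and -0.78 for complex III. For HFD-Ve over chow the medians of complexes II and IV turn above 0 (0.11 and 0.05) when arrays are shifted to a common median. The point above 3 is Cox6a2, which was not detected on the chow array.

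The windows around the start sites of 6 members are shown, whose genes mark both directions on these arrays. All 6 hold a match to a motif named below, so they do not stand for members without one. Ndufa12, Cox5b and Atp5c1 were lower on the HFD-Rapa array against chow than the members shown for complexes I, IV and V. Their windows hold none of the motifs searched. Ndufs3, Sdhb, Uqcrc1, Cox6a1 and Atp5pb stand for the 5 complexes and were lower by at least 1.5-fold on the HFD-Rapa array than on the chow array, and Atp5md of complex V was higher. The sequences are those of RefSeq (GRCm38.p6), from 250 bases before to 50 bases after the start site, on the strand of the gene. Capitals mark matches to the motifs of nuclear respiratory factor 1 (NRF1, the letters GCGCA followed by their reverse complement), ETS factors including GABP (CCGGAAG), YY1 (AAGATGGC) and the TATA box (TATAAA), on either strand.
Ndufs3, chr2:90904672-90904971, minus strand: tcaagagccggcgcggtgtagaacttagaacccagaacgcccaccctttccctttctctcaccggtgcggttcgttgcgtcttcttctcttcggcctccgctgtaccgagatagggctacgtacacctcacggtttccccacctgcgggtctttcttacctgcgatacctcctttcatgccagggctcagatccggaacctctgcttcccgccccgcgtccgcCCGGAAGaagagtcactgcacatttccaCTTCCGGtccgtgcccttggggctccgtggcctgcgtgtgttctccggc
Sdhb, chr4:140961021-140961320, plus strand: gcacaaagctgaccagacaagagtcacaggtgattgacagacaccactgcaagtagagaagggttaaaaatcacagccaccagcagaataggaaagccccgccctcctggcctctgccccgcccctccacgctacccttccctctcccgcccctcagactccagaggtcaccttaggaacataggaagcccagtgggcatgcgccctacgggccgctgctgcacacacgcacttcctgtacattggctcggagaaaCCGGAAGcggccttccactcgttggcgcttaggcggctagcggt
Uqcrc1, chr9:108936398-108936697, plus strand: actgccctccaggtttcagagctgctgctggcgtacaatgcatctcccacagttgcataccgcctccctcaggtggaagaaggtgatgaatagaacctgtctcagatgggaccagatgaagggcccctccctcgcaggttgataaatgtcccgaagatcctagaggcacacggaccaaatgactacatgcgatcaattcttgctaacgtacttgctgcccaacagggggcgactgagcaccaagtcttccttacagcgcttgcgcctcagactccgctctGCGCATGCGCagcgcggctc
Cox6a1, chr5:115348909-115349208, minus strand: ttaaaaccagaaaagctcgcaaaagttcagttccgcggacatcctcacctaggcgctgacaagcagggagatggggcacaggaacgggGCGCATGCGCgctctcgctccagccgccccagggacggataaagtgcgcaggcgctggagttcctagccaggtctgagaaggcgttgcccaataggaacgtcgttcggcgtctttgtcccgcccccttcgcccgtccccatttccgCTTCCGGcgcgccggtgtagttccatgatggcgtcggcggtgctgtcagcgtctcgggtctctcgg
Atp5pb, chr3:105959214-105959513, minus strand: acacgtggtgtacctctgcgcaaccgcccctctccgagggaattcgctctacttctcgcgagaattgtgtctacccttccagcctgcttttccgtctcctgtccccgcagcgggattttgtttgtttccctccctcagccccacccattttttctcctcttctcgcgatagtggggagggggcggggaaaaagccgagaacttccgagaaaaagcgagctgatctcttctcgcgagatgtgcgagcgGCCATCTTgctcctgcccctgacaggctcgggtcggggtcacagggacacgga
Atp5md, chr19:47090598-47090897, minus strand: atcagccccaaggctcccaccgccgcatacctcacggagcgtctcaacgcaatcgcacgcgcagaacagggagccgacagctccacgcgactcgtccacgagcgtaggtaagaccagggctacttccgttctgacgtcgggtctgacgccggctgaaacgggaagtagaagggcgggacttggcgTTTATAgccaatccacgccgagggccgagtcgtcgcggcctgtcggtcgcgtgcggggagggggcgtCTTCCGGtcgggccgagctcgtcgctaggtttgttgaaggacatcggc

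70 of the 82 genes had a window in that table. Counted over the 75 windows of these genes, the NRF1 motif, which reads the same on both strands, was in 7 (9.33%), against 0.971% of all 32851 windows, and 2.21% of measured genes held it. CCGGAAG was in 21 (28.0%), against 8.86% of all windows, and 19.6% of measured genes held it. AAGATGGC, whose first letters can overlap the end of CCGGAAG, was in 11 (14.7%), against 2.75% of all windows, and 5.16% of measured genes held it. TCAAGGTCA, the motif of the estrogen-related receptors, was in those of Atp5g3 and Sdhd (2.67%), against 0.423% of all windows, and TATAAA was in 8 (10.7%), against 13.6% of all windows, and 9.51% of measured genes held it. Of the 25 members with a window that were lower by 1.5-fold in HFD-Rapa than in chow VWAT, 3 held the NRF1 motif, 6 CCGGAAG, 5 AAGATGGC, none TCAAGGTCA and 2 TATAAA. Of the 12 members with a window that were higher on both high-fat diet arrays than on the chow array, 4 held CCGGAAG (Atp5md, Atp5e, Sdhd and Sdhaf3), 1 TCAAGGTCA and 2 TATAAA, and none held the others. A match is a description of the letters and was not tested as a binding site.

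Complex I, the NADH dehydrogenase, is the largest of the complexes. Its 41 members had medians of -0.14, -0.38 and -0.54 for the rapamycin, diet and combined differences. In that order 1, 7 and 17 members were lower by 1.5-fold, where 7.55%, 11.7% and 19.5% of all genes were. The last is 41.5% of its members, beside 37.8% of all 82 genes. Only Ndufb4 was higher at that size, in the diet and combined differences, where 15.1% and 20.5% of all genes were. The HFD-Rapa array was the lowest of the 3 for 30 of the 41, as for 38.0% of all genes. The chow array was the highest for 34, as for 45.2% of all genes. Ndufs3, a core subunit of the arm that carries electrons to ubiquinone, had log2 signals of 10.63 in HFD-Rapa, 11.23 in HFD-Ve and 11.62 in chow. HFD-Rapa was thus 1.51-fold lower than HFD-Ve and 1.99-fold lower than chow. The first of these folds lies at the threshold, and with no background correction it was no longer past it.

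The other core subunits of complex I did not all move by the same amount. Ndufv1, which binds the flavin that takes electrons from NADH, had 11.81 in HFD-Rapa, 12.14 in HFD-Ve and 12.76 in chow, and Ndufs7, which holds the last iron-sulphur cluster before ubiquinone, had 11.85 in HFD-Rapa, 12.09 in HFD-Ve and 12.76 in chow. Their signals were 1.94-fold and 1.89-fold lower on the HFD-Rapa than on the chow array. Ndufv2, an iron-sulphur subunit beside Ndufv1, had 11.87 in HFD-Rapa, 11.87 in HFD-Ve and 12.41 in chow. Ndufs8, a further iron-sulphur subunit, differed least, with 11.04 in HFD-Rapa, 10.94 in HFD-Ve and 11.17 in chow.

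Of the accessory subunits of complex I, which surround the core and stabilise it, Ndufa12, Ndufa10 and Ndufab1 had the lowest differences from chow. Ndufa12, on the arm in the matrix, had 9.89 in HFD-Rapa, 10.31 in HFD-Ve and 11.05 in chow, 2.24-fold lower in HFD-Rapa than in chow. Ndufa10, on the membrane arm, had 11.72 in HFD-Rapa, 12.02 in HFD-Ve and 12.86 in chow, and was 1.78-fold lower in HFD-Ve than in chow. Ndufab1, which is also the mitochondrial acyl carrier protein, had 12.02 in HFD-Rapa, 12.47 in HFD-Ve and 13.11 in chow, and 3 of its 4 probes gave -1.09 to -1.22 against chow for HFD-Rapa while the dimmest gave -0.03. Ndufb4, a subunit of the membrane arm, lay on the other side, with 9.07 in HFD-Rapa, 9.10 in HFD-Ve and 7.96 in chow, or 2.16-fold and 2.21-fold higher than chow. Ndufa4 is counted here by its symbol, although its product is now placed in complex IV, and was 1.61-fold lower in HFD-Rapa than in chow. The pseudogene Ndufs5-ps, listed by the annotation under its own symbol, was 1.68-fold lower in the same comparison, and its probe may share sequence with Ndufs5, which was not checked.

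The 7 measured assembly factors of complex I, which build the enzyme and leave it, had a median combined difference of -0.39. Ndufaf7, a methyltransferase, and Ndufaf1, a chaperone of the membrane arm, were 1.78-fold and 1.63-fold lower. Ndufaf3 had the highest difference of complex I between HFD-Rapa and HFD-Ve, with 6.76 in HFD-Rapa, 6.42 in HFD-Ve and 6.74 in chow, which is 1.27-fold. Ndufaf4, with a combined difference of -0.58, lay just short of 1.5-fold and is not among the 17. Its other kept probe gave 0.11.

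Complex II, the succinate dehydrogenase, is also an enzyme of the TCA cycle and is encoded wholly in the nucleus. Its 7 members had medians of -0.18 for the rapamycin difference, -0.11 for the diet difference (0.11 with the arrays shifted to a common median) and -0.12 for the combined difference. The 3 subunits among them had medians of -0.31, -0.48 and -0.80, and the others are assembly factors. Sdhb, the iron-sulphur subunit, had 10.36 in HFD-Rapa, 10.70 in HFD-Ve and 11.19 in chow, and was 1.78-fold lower in HFD-Rapa than in chow. Sdhc, a membrane anchor that helps to bind ubiquinone, had 11.05 in HFD-Rapa, 11.36 in HFD-Ve and 11.84 in chow and was 1.74-fold lower. Sdhd, the other membrane anchor, ran the other way against chow, with 9.51 in HFD-Rapa, 9.69 in HFD-Ve and 9.17 in chow. The subunits of this complex were thus not uniform. Of its assembly factors Sdhaf3, which acts on the iron-sulphur subunit, was 1.53-fold higher in HFD-Ve than in chow. Its other kept probe gave a diet difference of 0.22, short of 1.5-fold. Sdhaf2, which helps to attach the flavin, had 9.47 in HFD-Rapa, 9.48 in HFD-Ve and 9.59 in chow.

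Complex III, the cytochrome bc1 complex, had medians of -0.15, -0.47 and -0.78 for the rapamycin, diet and combined differences, the last 2 the lowest of the 5 complexes while assembly factors are counted. Among subunits only, complex II was lower in both, at -0.48 and -0.80. 4 of the 6 members of complex III were lower by 1.5-fold in HFD-Rapa than in chow, where 19.5% of all genes were. Uqcrc2 and Uqcrc1 are the large proteins that face the matrix, called core proteins by name but counted here with the accessory subunits since they hold no redox centre. Uqcrc2 had 12.24 in HFD-Rapa, 12.70 in HFD-Ve and 13.29 in chow, or 2.07-fold lower in HFD-Rapa than in chow, and Uqcrc1 had 11.17 in HFD-Rapa, 11.58 in HFD-Ve and 11.95 in chow, or 1.72-fold lower. Uqcrq, a small subunit close to cytochrome b, had 6.39 in HFD-Rapa, 6.30 in HFD-Ve and 7.36 in chow, 2.08-fold lower in HFD-Ve than in chow, on a dim probe whose difference shrank to -0.63 with no background correction. Uqcrh, the hinge protein that helps cytochrome c to bind, had 11.81 in HFD-Rapa, 11.54 in HFD-Ve and 11.76 in chow, with no array far from the others.

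Complex IV, cytochrome c oxidase, was the most mixed. Its 12 members had medians of -0.05 for the rapamycin difference, -0.12 for the diet difference (0.05 with the arrays shifted to a common median) and -0.23 for the combined difference. In the last, 4 members were lower and 3 higher by 1.5-fold, where 19.5% and 20.5% of all genes were. Cox5b, a zinc-binding subunit, had 12.71 in HFD-Rapa, 13.07 in HFD-Ve and 13.54 in chow, or 1.78-fold lower in HFD-Rapa than in chow. Cox6a1, the common isoform of subunit 6a, had 12.39 in HFD-Rapa, 12.76 in HFD-Ve and 13.12 in chow, or 1.66-fold lower, and Cox4i1, the common isoform of subunit 4, was 1.57-fold lower. Cox6c had nearly equal signals, at 12.81 in HFD-Rapa, 12.81 in HFD-Ve and 12.84 in chow. Cox7a2 and Cox7b, 2 small subunits of the membrane part, were 1.63-fold and 1.57-fold higher in HFD-Rapa than in chow, with Cox7a2 at 9.50 in HFD-Rapa, 9.28 in HFD-Ve and 8.79 in chow. Cox7a2l, counted here with the assembly and supercomplex factors, had 10.75 in HFD-Rapa, 10.72 in HFD-Ve and 10.58 in chow.

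The tissue-restricted isoforms of complex IV were all read on dim probes. Under the correction used here, Cox6a2 had the largest diet and combined differences of all members and Cox4i2 the largest rapamycin difference. Cox4i2 and Cox6b2 differed less from chow than other members did, such as Ndufa12. Cox6a2, the isoform of heart and skeletal muscle, had 8.09 in HFD-Rapa, 7.50 in HFD-Ve and was not detected on the chow array. It was at least 6.10-fold higher in HFD-Rapa and at least 4.05-fold higher in HFD-Ve than in chow, each bound set against the lowest detected signal of the chow array after the background correction used here. The HFD-Rapa signal was 1.51-fold that of HFD-Ve. Its scanner signals before any correction were 347 in HFD-Rapa, 282 in HFD-Ve and 98.6 in chow. With other settings its log2 difference was as low as 0.44 for the rapamycin, 1.24 for the diet and 1.68 for the combined difference, so the bounds hold for this correction only and the rapamycin difference did not stay past 1.5-fold. Cox4i2, the isoform known from lung and from low oxygen, had 6.18 in HFD-Ve and 6.15 in chow and was not detected on the HFD-Rapa array, which made it at least 1.89-fold lower than in HFD-Ve and at least 1.85-fold lower than in chow under the same correction. With other settings its rapamycin and combined differences were as small as -0.39 and -0.38, which is under 1.5-fold. Cox6b2, the testis isoform of subunit 6b, had 6.32 in HFD-Rapa, 5.69 in HFD-Ve and 6.18 in chow. Its difference of 0.63 between HFD-Rapa and HFD-Ve was 0.29 with no background correction.

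Markers of the tissues where these isoforms are known were read beside them. Of 12 skeletal muscle markers, 5 were measured, Cox6a2 among them. Pvalb, a calcium-binding protein of fast fibres, was not detected on the chow array and had 7.85 on the HFD-Rapa array and 8.98 on the HFD-Ve array. Myl1, a myosin light chain, had 11.55 in HFD-Rapa, 12.34 in HFD-Ve and 12.87 in chow, and Acta1 and Actn3 were also highest on the chow array. The summed linear signal of the 5 was 3998 in HFD-Rapa, 6425 in HFD-Ve and 8568 in chow. Most of that sum was Myl1, so it does not reflect Cox6a2 and Pvalb, which were higher on both high-fat diet arrays. Ckm, Myh1, Myh4, Tnnt3, Mylpf and Tnnc2 were not detected on any array. Of 10 testis markers Cox6b2 was the only one measured, with Prm1, Tnp1, Tnp2, Odf1 and Ldhc not detected. The part of such tissue in the signals of Cox6a2 and Cox6b2 was not tested.

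Complex V, the ATP synthase, had medians of -0.22, -0.27 and -0.45 for the rapamycin, diet and combined differences over 16 members. In the last, 4 were lower and 2 higher by 1.5-fold, where 19.5% and 20.5% of all genes were. The subunits of the catalytic head and central stalk of this complex differed among themselves. Atp5c1, the gamma subunit that turns inside the head, had 12.92 in HFD-Rapa, 13.27 in HFD-Ve and 13.83 in chow, or 1.88-fold lower in HFD-Rapa than in chow. Atp5d, the delta subunit of the central stalk, had 10.94 in HFD-Rapa, 11.26 in HFD-Ve and 11.67 in chow, or 1.66-fold lower. Atp5b, the catalytic beta subunit, had 14.13 in HFD-Rapa, 14.55 in HFD-Ve and 14.58 in chow, so that HFD-Rapa was 1.33-fold below HFD-Ve and the other arrays were alike. Atp5e, the epsilon subunit, was higher on both high-fat diet arrays, with 9.35 in HFD-Rapa, 9.03 in HFD-Ve and 8.34 in chow, or 2.01-fold in HFD-Rapa over chow.

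The alpha subunit Atp5a1 could not be settled, since its probes disagreed. Its chosen probe had 11.19 in HFD-Rapa, 11.64 in HFD-Ve and 11.13 in chow, the lowest rapamycin difference of complex V (-0.45) and a diet difference of 0.52, while its other kept probe gave -0.25 and -0.68 for them. Outside the head, Atp5pb, the b subunit of the peripheral stalk, had 10.39 in HFD-Rapa, 10.77 in HFD-Ve and 11.07 in chow, or 1.61-fold lower in HFD-Rapa than in chow. Of its 3 other kept probes 2 also had a combined difference below 0 and 1 lay above it, at 0.40. Atp5k, the e subunit of the membrane part, was 1.54-fold lower on a dim probe. Its other kept probe, dimmer still and not detected on the chow array, gave a combined difference of 0.34. Atp5md, another small subunit of the membrane part, had 8.47 in HFD-Rapa, 8.28 in HFD-Ve and 7.22 in chow, or 2.37-fold and 2.08-fold higher than chow.

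**Figure D2:**
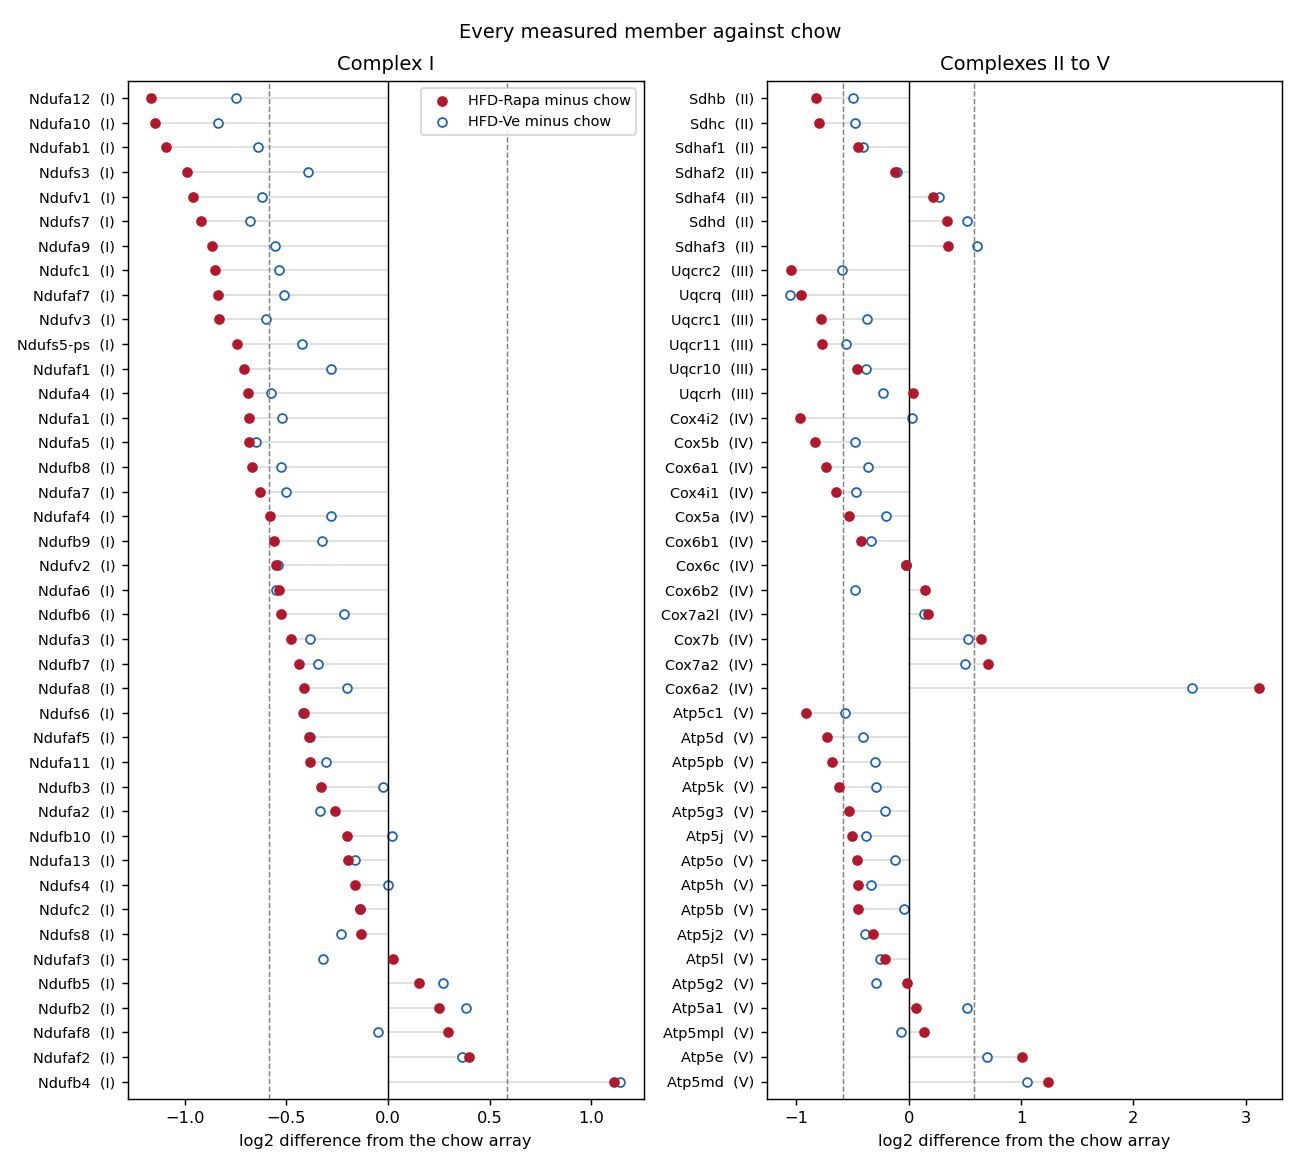
Log2 difference of each of the 82 genes from the chow array, for HFD-Rapa (filled) and HFD-Ve (open), in order of the HFD-Rapa difference within complex I (left) and complexes II to V (right, on a wider axis). Dashed lines mark 1.5-fold. Filled points run from -1.16 for Ndufa12 to 3.12 for Cox6a2, whose chow signal was not detected, and both points of a gene share the chow array.

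Grouped by role, the 13 core subunits are those of the core of complex I, of complex II and of the catalytic head and central stalk of complex V. Not every one of them holds a redox centre. All 13 belonged to complexes I, II and V, so their medians say nothing of complexes III and IV. They had medians of -0.32, -0.41 and -0.73 for the rapamycin, diet and combined differences. In the last, 7 of the 13 were lower by 1.5-fold and 1, Atp5e, was higher, where 19.5% of all genes were lower and 20.5% higher. The 53 accessory subunits had medians of -0.13, -0.34 and -0.48 for these differences, with 20 lower and 4 higher in the last. The 12 assembly and supercomplex factors lay nearer to 0 than the core and accessory subunits, at -0.03, -0.19 and -0.05. The last 2 of these medians turned to 0.01 and 0.07 when the arrays were shifted to a common median. The 3 tissue-restricted isoforms had medians of 0.59, 0.03 and 0.15. Differences between the roles were not tested.

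The direction of a member went with the brightness of its probe. 57 of the 82 genes (69.5%) had a mean log2 signal of at least 10 over the 3 arrays, as 22.2% of all genes had, a limit chosen after the values were seen. None of these 57 was higher by 1.5-fold in any comparison, and 47, 53 and 52 were below 0 in the rapamycin, diet and combined differences. Their medians were -0.22, -0.38 and -0.54 in that order, and 1, 8 and 26 of them were lower by 1.5-fold. All 2358 genes of that brightness had medians of -0.01, -0.03 and -0.03, with 8.18%, 8.23% and 18.2% lower and 4.66%, 12.8% and 16.6% higher by 1.5-fold, and 51.6%, 52.8% and 51.9% below 0. The other 25 members were spread on both sides of 0, with 14, 13 and 11 below 0 and medians of -0.01, -0.05 and 0.15, the middle one at 0.18 by the median shift. They held every member that was higher by 1.5-fold.

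**Figure D3:**
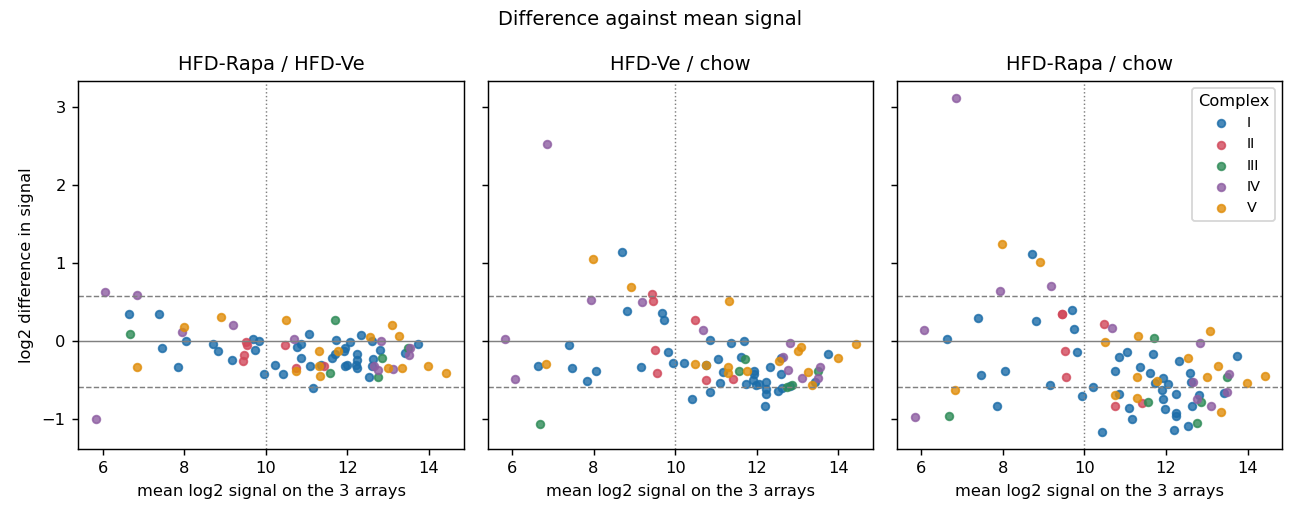
Log2 difference of each of the 82 genes against its mean log2 signal on the 3 arrays, coloured by complex, for the 3 comparisons. The dotted line marks the signal of 10 and dashed lines 1.5-fold; to the right of the dotted line no gene reaches the upper dashed line, and 26 of 57 lie past the lower one in HFD-Rapa over chow.

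27 of the 82 genes had several kept probes, which gives the only spread within a gene. All kept probes of a gene had 1 sign in 21, 16 and 18 of the 27 for the rapamycin, diet and combined differences, or 77.8%, 59.3% and 66.7%, against 72.6%, 71.9% and 74.9% of the 3941 genes with several probes. The pooled SD between probes of a gene was 0.16, 0.38 and 0.42 for these 27 genes in those comparisons, and 0.21, 0.32 and 0.38 over all genes. Probes that had not been chosen and reached a mean log2 signal of 10 were below 0 in 11, 10 and 11 of 12 cases, and those under it in 20, 14 and 16 of 24. The second probes of Ndufa5, Ndufc2 and Ndufaf5 were higher on the HFD-Rapa array than on the chow array, by 0.48, 0.80 and 0.48. The chosen probes gave -0.68, -0.14 and -0.39. For Ndufaf4 and Atp5k the second probes gave 0.11 and 0.34, and the chosen ones -0.58 and -0.62. Atp5a1, Atp5pb, Atp5l and Ndufs4 also had kept probes of both signs in the combined difference.

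The steps around the respiratory chain were read from lists of named genes. For the counts that follow, the shares of all genes lower by 1.5-fold were 7.55%, 11.7% and 19.5% in the rapamycin, diet and combined differences. The shares higher were 8.54%, 15.1% and 20.5%. Of 17 genes for electron carriers and their synthesis 14 were measured, with medians of -0.43, -0.30 and -0.70 for the rapamycin, diet and combined differences, and 5, 3 and 9 lower and none higher by 1.5-fold. Cyc1, the cytochrome c1 subunit of complex III that the name rule does not cover, had 10.57 in HFD-Rapa, 11.28 in HFD-Ve and 11.78 in chow, with HFD-Rapa 1.63-fold below HFD-Ve. Coq9, needed to make ubiquinone, was 1.77-fold lower in that comparison, and Etfdh and Etfa, which bring electrons of fatty acid oxidation to ubiquinone, were 1.68-fold and 1.52-fold lower. Of 14 TCA cycle enzymes 13 were measured, with medians of -0.51, -0.43 and -0.86 in the same order, and 3, 2 and 8 lower and 0, 2 and 1 higher. All 13 were below 0 in HFD-Rapa against HFD-Ve, where Cs, which makes citrate, was 1.58-fold lower, Suclg2, a subunit of succinyl-CoA ligase, 1.58-fold and Mdh2, malate dehydrogenase, 1.51-fold.

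Other lists of the mitochondrion were nearer to the median of all genes. 30 of 37 further assembly factors, most of them for complexes III to V, had medians of -0.16, -0.21 and -0.38 for the rapamycin, diet and combined differences, with 3, 1 and 10 lower and 0, 1 and 1 higher. The 3 lower in the first were Acad9 and Foxred1, which act on complex I, and Atpaf2, which acts on complex V. 18 of 21 genes of protein import had medians of -0.11, -0.18 and -0.31, the middle one at 0.03 by the median shift. 6 of 7 ADP/ATP and phosphate carriers and porins had -0.10, 0.02 and -0.17, the middle one at -0.03 by the 75th percentile shift. 16 of 18 transcriptional regulators of mitochondrial genes had -0.23, -0.29 and -0.41, with 2, 3 and 6 lower and 1, 2 and 0 higher. Among them Ppargc1a, a coactivator of mitochondrial genes, was not detected on the HFD-Rapa array and had 5.96 in HFD-Ve and 6.82 in chow. Its relative Ppargc1b had 7.33 in HFD-Rapa, 7.75 in HFD-Ve and 9.19 in chow, or 3.65-fold lower in HFD-Rapa than in chow. Esrrg, an estrogen-related receptor, was detected on the HFD-Ve array alone, and Gabpb2, a partner of GABP, had a signal in HFD-Rapa 1.54-fold that in HFD-Ve.

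Markers of several cell types of the tissue also differed between the arrays. Of the 11 measured adipocyte markers 6, 5 and 8 were lower by 1.5-fold in the rapamycin, diet and combined differences, with medians of -0.92, -0.52 and -1.23. Among all genes 7.55%, 11.7% and 19.5% were lower. Lep went the other way and was higher by 1.5-fold in the diet and combined differences. The summed linear signal of the adipocyte markers was 77450 in HFD-Rapa, 110374 in HFD-Ve and 123460 in chow. Of the 11 measured macrophage markers 6, 9 and 10 were higher by 1.5-fold in those differences, with medians that correspond to 1.54-fold, 2.53-fold and 4.01-fold. Among all genes 8.54%, 15.1% and 20.5% were higher. Cd163 was lower by 1.5-fold in the diet and combined differences. The summed signal of the macrophage markers was 44698 in HFD-Rapa, 31062 in HFD-Ve and 11102 in chow. All 7 measured endothelial markers had a rapamycin difference below 0, 6 of them past 1.5-fold, with medians of -0.90 for the rapamycin difference, -0.17 for the diet difference (0.04 by the median shift) and -0.93 for the combined difference, and summed signals of 2686 in HFD-Rapa, 4786 in HFD-Ve and 5271 in chow. Brown adipocyte markers, of which 5 of 8 were measured and Dio2, Zic1 and Elovl3 were not detected, had medians of -0.92, -0.14 (0.09 by the median shift) and -1.82, and all 5 were lower by 1.5-fold with rapamycin than with vehicle. The respiratory chain isoforms of that list, Cox8b and Cox7a1, had 9.46 and 8.25 in HFD-Rapa, 11.15 and 9.15 in HFD-Ve and 11.29 and 8.98 in chow. The part of these cell types in the lower signals of the oxidative phosphorylation genes was not tested.

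**Figure D4:**
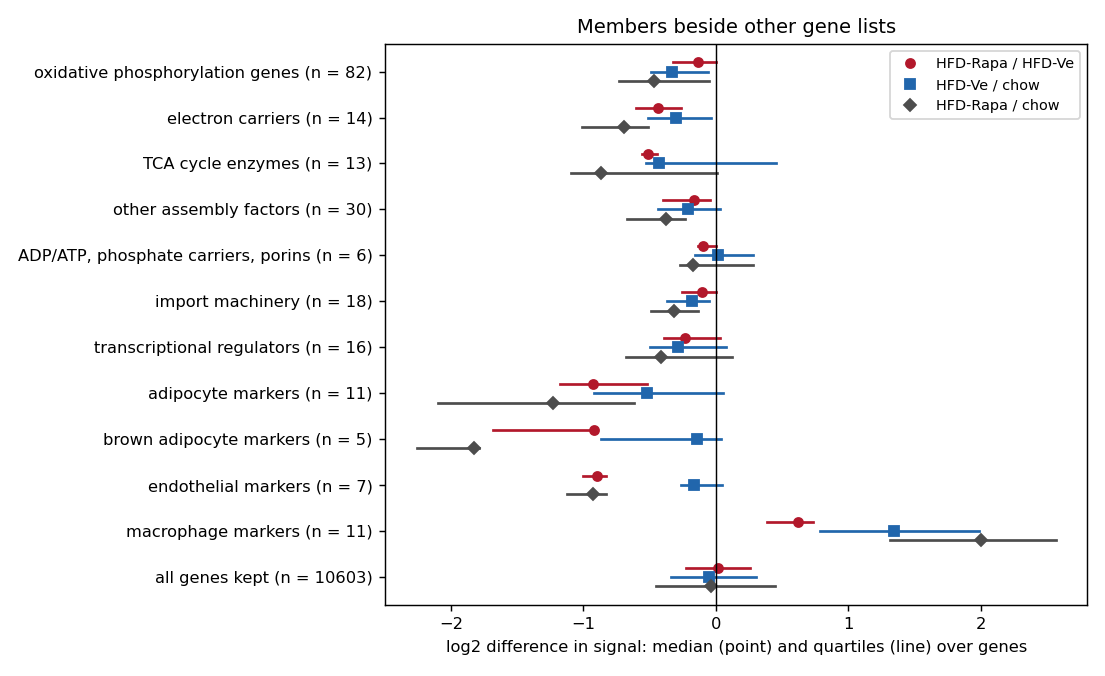
Median (point) and quartiles (line) of the log2 difference for the oxidative phosphorylation genes, the lists around them, cell type markers and all genes, with the number of measured genes in brackets, for HFD-Rapa over HFD-Ve, HFD-Ve over chow and HFD-Rapa over chow. The oxidative phosphorylation genes lie at -0.14, -0.33 and -0.46, the adipocyte markers at -0.92, -0.52 and -1.23 and all genes at 0.02, -0.05 and -0.04. For HFD-Ve over chow the import, endothelial and brown adipocyte medians turn above 0 by a shift to a common median, and that of the carriers and porins below 0 by a shift to the 75th percentile.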

How the data were processed

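Illumina Mouse WG-6 v2 bead arrays were hybridized with biotin-labelled cRNA, 1 array each for HFD-Rapa, HFD-Ve and chow VWAT. The authors deposited raw scanner intensity values per probe, without normalization or subtraction of background. They exported them with GenomeStudio, a tool named in the submitters' processing notes without a version. A second deposited table holds their processed intensity, for which the study names Genespring GX but no normalization method. These values gave 453 genes higher and 436 lower by 1.5-fold in the rapamycin difference. Quantile normalization with no background correction gave 449 and 439, so these 2 alternatives are close to one another and not separate checks. The deposited detection p-value of each probe sets its signal against the negative controls of the same array. Background was corrected from the detection p-values with limma 3.58.1 in R 4.3.3 (nec, offset 16), followed by quantile normalization and log2. Probes had to reach a detection p under 0.01 on 1 array or more, which kept 18954, and each gene was read from its brightest probe. By the platform annotation 34885 probes had 1 gene, 18 had several and were not named, and 10378 are unnamed here. Where the dimmer array of a pair did not detect a gene, a bound is given, with the lowest detected signal of that array in place of the gene's own. Summaries used Python 3.11.15, numpy 2.4.6 and pandas 2.3.3, and plots matplotlib 3.10.9. Groups came from the sample labels. With 1 array per group there was no test, and precision is limited by the number of arrays. The steps were also run on simulated arrays with a noise SD of 0.1 on the log2 scale. That is below the pooled SD between probes of a gene in the rapamycin difference (0.21 over all genes). Of probes set 2-fold higher or lower, 90.0% and 88.0% passed 1.5-fold, and so did 7.97% of 24017 unchanged probes.

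The members and lists were chosen with earlier results of these data known. Named members are the highest and lowest of each complex in each comparison, core subunits, alternative isoforms, members higher by 1.5-fold and members not detected on some array, and of each other list up to 4 genes past 1.5-fold. Other members were named to account for counts or because their probes disagreed, after their values were seen. The counts of lower members, the medians over members and complexes and the differences of named members were recomputed on uncorrected signals, with an offset of 50, with arrays shifted to a common median or 75th percentile, on the authors' processed values, with other detection filters (p under 0.05 on any array, p under 0.01 on all 3 arrays, or none), on the mean of a gene's probes, on subunits only and with Ndufa4 counted in complex IV, and counts were repeated at 2-fold and with undetected genes at their bound. Counts over bright members were added after seeing the data.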

Additional observations from a re-analysis of the deposited data

How the results depend on the processing

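No paired analysis was possible because each group has 1 array. The median of the 82 genes stayed below 0 under each alternative run, at -0.25 to -0.12 for the rapamycin difference, -0.38 to -0.10 for the diet difference and -0.54 to -0.37 for the combined difference. The 2 members lower by 1.5-fold in the rapamycin difference became 0 with no background correction, 0 with the authors' processed values, 0 at 2-fold, 1 with detection on all 3 arrays and 1 among members with a mean log2 signal of at least 10, an alternative chosen after seeing the data. The 2 higher in it became 0 with no background correction, an offset of 50, the median shift or the authors' processed values, and 1 by the 75th percentile shift. The 9 lower in the diet difference became 16 by the 75th percentile shift, 2 by the median shift and 1 at 2-fold, and the 31 in the combined difference became 4 at 2-fold. The median shift turned the diet difference of complex II to 0.11 and of complex IV to 0.054; the cause was not tested. It gave 635 genes higher and 1130 lower in the rapamycin difference, against 906 and 801 by quantile normalization, and 2306 and 697 in the diet difference, against 1597 and 1240. With subunits only, the diet and combined medians of complex II were -0.48 and -0.80. The pooled SD between probes of a gene over all genes was 0.21, 0.32 and 0.38 for the rapamycin, diet and combined differences. Of the differences of named genes recomputed under alternatives, 21 moved by more than this SD and 810 by less. Those that moved belonged to Cox4i2, Cox6a2, Cox6b2 and Uqcrq, on dim probes and with no background correction, an offset of 50 or the authors' processed values, and to Atp5a1 with the mean of its probes.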
